A study of Mus musculus with 10 samples.

Results

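Genes of regulatory T cells and of the IL-10 and TGF-beta pathways were examined in colitic mouse colon. The set was chosen by name and held 10 genes, of which 9 had a named probe set (Il2ra, Ikzf2, Tnfrsf18, Lrrc32, Il10, Il10ra, Tgfb1, Tgfbr2 and Ebi3) among 19505 genes in all, with 1 probe set each. The other listed gene, Foxp3, was not analysed here. Total RNA of complete colon tissue from wildtype C57BL/6 mice was hybridised to 10 single-colour expression arrays. All mice had colitis, induced with 3% dextran sulfate sodium (DSS, which injures the colonic epithelium) in the drinking water and an intraperitoneal antibody against the checkpoint receptor PD1. The 5 control arrays came from mice with colitis alone, and the 5 ECP arrays from mice that had also been given donor cells treated by extracorporeal photopheresis (ECP), a procedure that treats white blood cells outside the body with a light-activated drug and ultraviolet light. No group without colitis, without anti-PD1 or with untreated donor cells was analysed here. The labels give no age or sex and do not say whether the arrays come from different mice, and p-values then measure only the spread between these samples, which may be technical. ECP is held to induce tolerance, and the comparison asks whether these genes differed between the groups. Values are log2 intensities, differences are ECP minus control on that scale, and the spread is the SD over the 5 arrays of a group.

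Regulatory T cells are CD4+ T cells that restrain other immune cells and are abundant in the colon. They carry the high-affinity IL-2 receptor, whose alpha chain CD25 is encoded by Il2ra, and they produce or activate suppressive cytokines. IL-10 acts through a receptor of the Il10ra and Il10rb chains and through STAT3, and mice lacking Il10 develop colitis. TGF-beta is secreted in a latent form, is released by integrins or on the carrier protein GARP, and signals through the Tgfbr2 and Tgfbr1 receptors and the Smad proteins. EBI3 is a shared cytokine subunit that pairs with p28 to form IL-27 and with the Il12a product p35 to form IL-35.

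Promoters from RefSeq (build GRCm38.p6, 250 bases before to 50 after the transcription start) matched 5 of the 9 measured members by symbol. The promoters of Tnfrsf18 (chr4:156026072-156026371, plus strand), the 1 member with an unadjusted p under 0.05 that had an entry, and of Tgfb1 (chr7:25686752-25687051, plus strand), the ligand with the most uneven spread between the groups, are shown because they differ in make-up. Capitals mark matches on either strand to any of 5 motifs, namely the GC box GGGCGG, the core promoter box TATAAA, the AP-1 site TGANTCA, the STAT site TTCNNNGAA and the forkhead site TGTTTAC.
Tnfrsf18 promoter: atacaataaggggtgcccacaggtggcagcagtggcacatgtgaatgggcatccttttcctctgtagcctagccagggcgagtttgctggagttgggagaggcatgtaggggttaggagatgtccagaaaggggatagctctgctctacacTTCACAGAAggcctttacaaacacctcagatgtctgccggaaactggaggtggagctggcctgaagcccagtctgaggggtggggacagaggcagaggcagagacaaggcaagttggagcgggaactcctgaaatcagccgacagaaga
Tgfb1 promoter: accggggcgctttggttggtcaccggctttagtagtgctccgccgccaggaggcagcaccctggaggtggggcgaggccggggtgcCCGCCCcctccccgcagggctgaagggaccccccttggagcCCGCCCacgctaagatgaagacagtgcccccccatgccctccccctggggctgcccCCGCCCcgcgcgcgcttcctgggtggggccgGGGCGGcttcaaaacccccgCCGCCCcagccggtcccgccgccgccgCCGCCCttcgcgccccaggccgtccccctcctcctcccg
The Tgfb1 window was 77.0% G and C and held 6 GC box matches, and the Tnfrsf18 window was 55.3% G and C and held 1 STAT match that starts at base 152. Over 32851 promoters of the same length the median was 52.7% G and C, 35.7% held a GC box match, 13.62% a TATAAA match, 7.81% an AP-1 match, 8.30% a STAT match and 3.65% a forkhead match. A match describes the letters and is not a measured binding site.

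No measured member passed the threshold. With limma, adjusted over all 19505 genes, 0 of 9 members had an adjusted p under 0.05, and 0.00% of all genes did. At an unadjusted p under 0.05 stood 2 members, Il10 with higher and Tnfrsf18 with lower values in the ECP arrays, against 5.08% of all genes (2.31% higher and 2.77% lower). Differences were positive for 6 members and negative for 3, with a median of 0.08, and the median over all genes was 0.01. The groups overlapped for all 9 measured members, and they did not overlap for 1.22% of all genes.

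**Figure D1:**
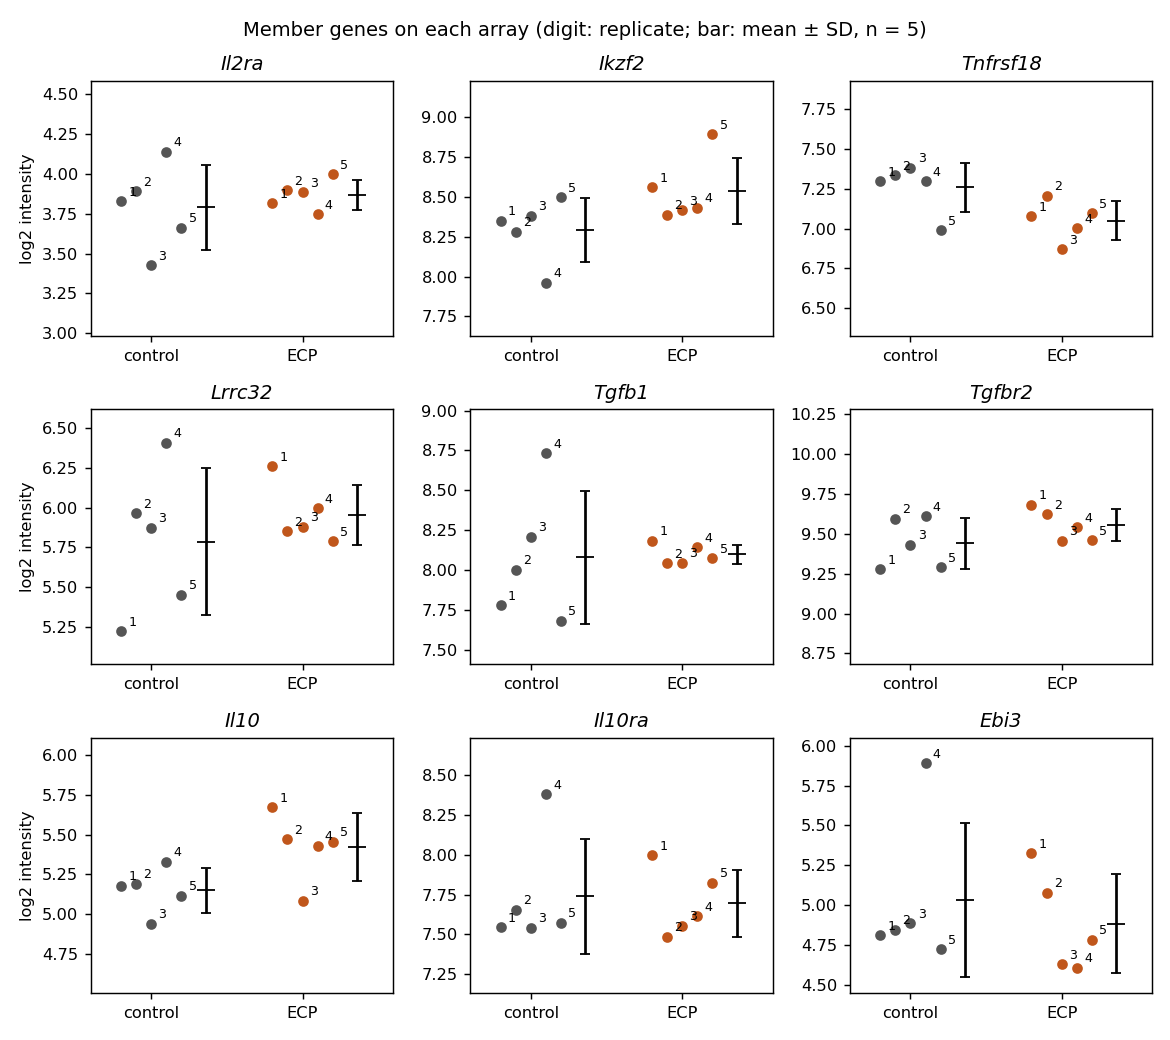
Log2 intensity (vertical axis, a span of 1.6 in every panel) of each measured member on the 5 control arrays (grey) and 5 ECP arrays (orange); digits give the replicate and bars the mean ± SD. Il10 lay above every control on 4 of 5 ECP arrays, and Tgfb1 spread from 7.68 to 8.73 over the controls and from 8.04 to 8.18 over the ECP arrays.

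The arrays differed in their markers of other tissues and cells. Colon epithelium markers were bright on all arrays (a mean level of 12.06 to 12.36 over 9 measured markers). The mucin gene Muc2 was at 13.50 ± 0.06 (SD, n = 5) under ECP and 13.46 ± 0.13 (SD, n = 5) without it. The epithelial adhesion gene Epcam was at 12.24 ± 0.04 and 12.26 ± 0.06. Their differences were 0.03 and -0.02, or -0.03 and -0.05 without control replicates 1 and 4. All measured smooth muscle (9), fibroblast (6) and fat cell (6) markers had higher means in the ECP group, with list levels of 10.13, 8.69 and 6.68 against 9.80, 8.57 and 6.21 in the controls, and the smooth muscle myosin gene Myh11 differed by 0.23. Without control replicates 1 and 4 the smooth muscle level differed by 0.06 in place of 0.32 and Myh11 by 0.02, and the fat cell level by 0.59 in place of 0.46. The fibroblast level differed by 0.12, and by 0.001 without control replicate 1. Neutrophil markers (7 genes) were at 5.85 in control replicate 5 and 7.88 in control replicate 4, and between 6.34 and 6.98 elsewhere. The part of these tissue differences in the members' values was not tested. Control replicate 4 held the highest level of 13 T cell markers (7.09, with 5.95 to 6.38 on the other arrays) and of 10 B cell markers (8.67, with 6.25 to 7.25 on the others). Pancreatic acinar markers (13 genes) reached 12.28 in control replicate 4 and 10.54 in control replicate 1, with 6.91 in control replicate 5 and 6.0 to 6.24 on the other 7 arrays. The difference without control replicates 1 and 4 is also given for each measured member, and for another gene where it is over 1.5 times larger or smaller or turns sign. In whole tissue, fewer cells of a type and less RNA per cell cannot be told apart.

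The 3 measured members known as markers of regulatory T cells, Ikzf2, Tnfrsf18 and Il2ra, differed in both directions, and none passed after adjustment. Control replicate 4, with the highest T cell marker level (7.09), was lowest in Ikzf2 and not highest in Tnfrsf18 (7.30). Which cells gave these signals was not tested. Ikzf2, which encodes the transcription factor Helios, was at 8.56, 8.39, 8.42, 8.43 and 8.89 in ECP replicates 1 to 5 and at 8.35, 8.28, 8.38, 7.96 and 8.5 in control replicates 1 to 5. The 2 highest arrays were ECP arrays and the lowest was control replicate 4. All ECP arrays lay above 4 of the 5 controls, and control replicate 5 lay among them. The difference was 0.24 (SE 0.12, 95% interval -0.02 to 0.50, limma unadjusted p = 0.0632, adjusted p = 0.996), or 0.15 without control replicates 1 and 4 and also without ECP replicate 5 alone.

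Tnfrsf18 encodes GITR, a costimulatory receptor of regulatory and activated T cells. It was at 7.08, 7.20, 6.87, 7.0 and 7.10 in ECP replicates 1 to 5 and at 7.30, 7.34, 7.38, 7.30 and 6.99 in control replicates 1 to 5. Control replicates 1 to 4 lay above all ECP arrays, and control replicate 5 lay among them. The difference was -0.21 (SE 0.09, 95% interval -0.40 to -0.02, limma unadjusted p = 0.0370, adjusted p = 0.95), which is 0.865 of the control level. It stayed negative without each array in turn, from -0.28 without control replicate 5 to -0.16 without ECP replicate 3, and its unadjusted limma p was under 0.05 in 3 of those 10 fits. Without control replicates 1 and 4 it was -0.19 (limma unadjusted p = 0.112).

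Il2ra was at 3.82, 3.90, 3.89, 3.75 and 4.00 in ECP replicates 1 to 5 and at 3.83, 3.89, 3.43, 4.14 and 3.66 in control replicates 1 to 5. The controls held both the highest and the lowest array and enclosed the ECP arrays. Its difference was 0.08 (SE 0.12, 95% interval -0.17 to 0.33), or 0.21 without control replicates 1 and 4 and -0.01 without control replicate 3. Its probe set was among the dimmest 5.4% of genes by mean intensity, and no detection calls were analysed here.

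Lrrc32 encodes GARP, the protein that holds latent TGF-beta on the surface of activated regulatory T cells and that endothelial and stromal cells also make. It was at 6.26, 5.85, 5.88, 6.00 and 5.79 in ECP replicates 1 to 5 and at 5.22, 5.97, 5.87, 6.41 and 5.45 in control replicates 1 to 5. The highest array was control replicate 4 and the lowest control replicates 1 and 5. The same 3 arrays were the extremes of 6 endothelial markers, with levels of 7.98, 7.30 and 7.48 against 7.61 to 7.83 on the others. Macrophage markers had the same extremes. The part of endothelial or other cell content in the Lrrc32 values was not tested. The difference was 0.17 (SE 0.19, 95% interval -0.25 to 0.59), and it was 0.03 without control replicate 1, 0.33 without control replicate 4 and 0.19 without both.

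Tgfb1, the main TGF-beta ligand gene of immune cells, had nearly equal means. It was at 8.18, 8.04, 8.05, 8.14 and 8.07 in ECP replicates 1 to 5 and at 7.78, 8.0, 8.21, 8.73 and 7.68 in control replicates 1 to 5. No control lay within the narrow ECP range, since 2 lay above it and 3 below it. The ECP mean was 8.10 ± 0.06 (SD, n = 5) and the control mean 8.08 ± 0.42 (SD, n = 5), and the control SD was 6.68 times the ECP SD. The difference was 0.02 (SE 0.16, 95% interval -0.34 to 0.37), so a fold from 0.789 to 1.30 lay within the interval, and it was 0.18 without control replicate 4, -0.08 without control replicate 5 and 0.13 without control replicates 1 and 4. Macrophage markers (9 genes) were likewise lowest in control replicates 1 and 5, at 7.51 and 7.70, and highest in control replicate 4, at 8.52. This order was not particular to macrophages. Endothelial markers had the same extremes (7.30, 7.48 and 7.98), and fibroblast markers were also lowest in control replicates 1 and 5 (8.10 and 8.38). With the macrophage level as a covariate, an alternative chosen after seeing the data, the Tgfb1 difference was -0.05. In the planned fits with the T cell, B cell or acinar level as a covariate, it was 0.10, 0.11 and 0.19.

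Tgfbr2, the receptor that binds TGF-beta first, was at 9.68, 9.62, 9.46, 9.54 and 9.46 in ECP replicates 1 to 5 and at 9.28, 9.60, 9.43, 9.61 and 9.29 in control replicates 1 to 5. Control replicates 1 and 5 were the lowest arrays, control replicate 3 lay just below the ECP range, and the remaining controls lay inside it. The difference was 0.11 (SE 0.09, 95% interval -0.08 to 0.30), and also 0.11 without control replicates 1 and 4.

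Il10, with a probe set among the dimmest 25.5% of genes by mean intensity, had the smallest unadjusted p of the members. It was at 5.67, 5.47, 5.09, 5.43 and 5.45 in ECP replicates 1 to 5 and at 5.18, 5.19, 4.94, 5.33 and 5.12 in control replicates 1 to 5. ECP replicates 1, 2, 4 and 5 lay above all controls, and ECP replicate 3 lay below 4 of the 5. The mean was 5.42 ± 0.21 (SD, n = 5) against 5.15 ± 0.14 (SD, n = 5). The difference was 0.27 (SE 0.11, 95% interval 0.04 to 0.50), a fold of 1.21 with an interval of 1.03 to 1.42, and did not pass after adjustment (limma unadjusted p = 0.0258, adjusted p = 0.937). It was 0.34 without control replicates 1 and 4, and 0.30 with the T cell level as a covariate (limma unadjusted p = 0.00915, adjusted p = 0.594). With the macrophage level as a covariate, an alternative chosen after seeing the data, it was 0.24 (limma unadjusted p = 0.0266, adjusted p = 0.681). The highest ECP array, replicate 1, and the highest control, replicate 4, were also the 2 highest arrays in T cell, B cell and macrophage markers. Leaving out single arrays gave 0.21 (ECP replicate 1 removed) to 0.36 (ECP replicate 3 removed), and the unadjusted p was under 0.05 in 7 of those 10 fits.

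Il10ra, the ligand-binding receptor chain found on most leukocytes, was at 8.0, 7.49, 7.55, 7.62 and 7.82 in ECP replicates 1 to 5 and at 7.54, 7.66, 7.54, 8.38 and 7.57 in control replicates 1 to 5. The highest arrays were control replicate 4 and ECP replicate 1, the same 2 arrays that were highest in T cell, B cell and macrophage markers. The difference was -0.04 (SE 0.16, 95% interval -0.40 to 0.31), and it was 0.12 without control replicate 4, 0.11 without control replicates 1 and 4 and 0.05 with the T cell level as a covariate. The second receptor chain, Il10rb, which epithelial cells also carry, differed by 0.05 (SE 0.06), or 0.02 without control replicates 1 and 4.

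Ebi3 was at 5.33, 5.08, 4.63, 4.61 and 4.78 in ECP replicates 1 to 5 and at 4.81, 4.85, 4.89, 5.89 and 4.72 in control replicates 1 to 5. Control replicate 4 was the highest array by a wide margin, followed by ECP replicate 1. The probe set was among the dimmest 21.3% of genes by mean intensity. The difference of -0.15 (SE 0.22, 95% interval -0.62 to 0.33) was 0.07 without control replicate 4, 0.07 without control replicates 1 and 4, and -0.02 with the T cell level as a covariate.

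**Figure D2:**
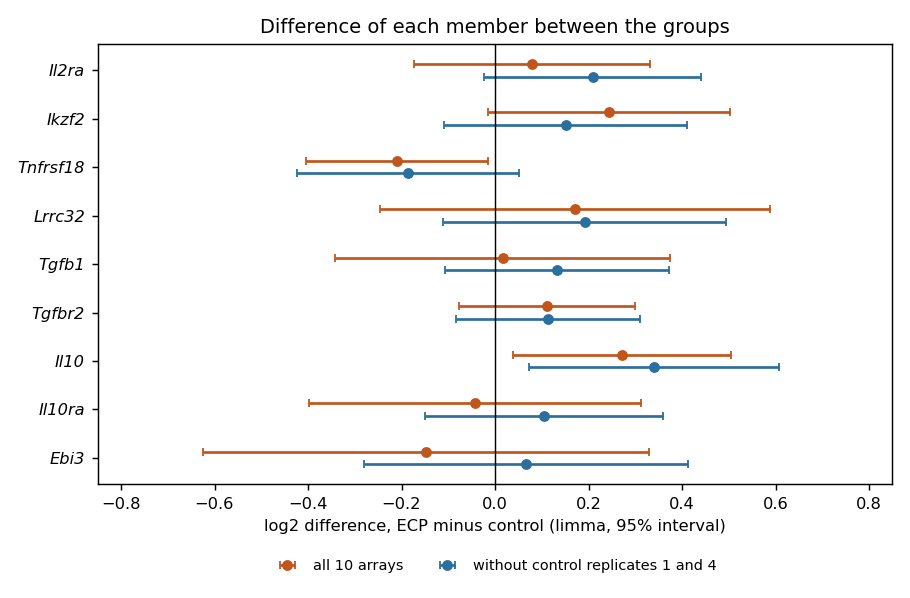
Difference of each measured member between the groups (horizontal axis, log2, ECP minus control) with its 95% limma interval, for all 10 arrays (orange) and without control replicates 1 and 4 (blue). With all arrays, the intervals of Il10 (0.04 to 0.50) and Tnfrsf18 (-0.40 to -0.02) lay on 1 side of 0, and those of the other 7 members crossed it.

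The other genes of these pathways were taken from 8 lists that held 98 measured genes besides the members. With ECP, 44 of the 98 had higher and 54 lower means, with a median difference of -0.01 (0.01 over all genes), and 0 had an adjusted p under 0.05 with limma. An unadjusted p under 0.05 was reached by 6 of them (6.12%, against 5.08% of all genes), 2 higher and 4 lower. Of these, Ccr8, Il2, Il23a and Il19 were among the dimmest 20.4%, 16.1%, 16.6% and 12.5% of genes by mean intensity. No detection calls were analysed here, so whether they lay above background is not known. The medians of the lists were small, and leaving out 1 array turned the sign of 7 of the 8. Leaving out control replicates 1 and 4 turned 5. The median of the receptor and Smad genes stayed negative in these fits, from -0.09 to -0.03 with 1 array left out.

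Among 24 other regulatory T cell genes, 10 were higher and 14 lower, with a median of -0.02, or 0.06 without control replicate 4. Nt5e, the ectoenzyme CD73 that makes adenosine, differed by -0.42 (SE 0.15, limma unadjusted p = 0.0152, adjusted p = 0.822). It was at 9.25, 8.90, 8.89, 8.70 and 8.33 in ECP replicates 1 to 5 and at 9.07, 9.29, 9.49, 9.08 and 9.24 in control replicates 1 to 5, so that ECP replicate 1 alone lay among the controls. Nt5e is also made by colonic epithelium and stroma. Ccr8, a chemokine receptor of activated regulatory T cells, differed by 0.36 (SE 0.15, limma unadjusted p = 0.0308, adjusted p = 0.939), with ECP values of 4.83 to 5.39 and control values of 4.23 to 5.07. Bach2, a transcription factor that keeps lymphocytes in a less differentiated state, differed by -0.28 (SE 0.13). The inhibitory receptor gene Ctla4 differed by 0.15 (SE 0.28), with 6.93 in control replicate 4 and 5.05 to 5.84 in the other controls. Without control replicate 4 its difference was 0.44, and without control replicates 1 and 4 it was 0.46.

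General T cell markers had a direction that rested on control replicate 4. Of 13 measured, 2 had higher and 11 lower means with ECP, and their mean level was 6.10 ± 0.17 (SD, n = 5) with ECP and 6.22 ± 0.49 (SD, n = 5) without. The control level was 6.00 without control replicate 4, so that the difference in level turned from -0.12 to 0.10. Among the ECP arrays, replicate 1 stood at 6.38 and the others at 5.99 to 6.14. Cd3e, a chain of the T cell receptor complex, differed by -0.33 (SE 0.32), or 0.01 without control replicate 4 and -0.02 without control replicates 1 and 4. Cd4, the coreceptor of helper and regulatory T cells, which macrophages carry too, differed by -0.19 (SE 0.20). Its difference was -0.03 without control replicate 4, -0.36 without control replicate 1 and -0.20 without both.

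The IL-2 receptor list had 3 of 11 measured genes higher and 8 lower, with a median of -0.04, or 0.01 without control replicate 4. The cytokine gene Il2 differed by -0.32 (SE 0.13, limma unadjusted p = 0.0341, adjusted p = 0.939), with 4.22 to 4.61 in the ECP arrays and 4.38 to 5.10 in the controls. Il15, a cytokine that shares the IL-2 receptor beta chain, differed by 0.36 (SE 0.21), or 0.13 without control replicates 1 and 4. The beta chain gene Il2rb differed by -0.16 (SE 0.26) and the transcription factor gene Stat5b by -0.10 (SE 0.08), or by 0.08 and -0.05 without control replicates 1 and 4.

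Genes of IL-10 signalling and response were lower in 9 of 13 cases, with a median of -0.05 that turned to 0.05 without control replicate 4, and none had an unadjusted limma p under 0.05. Socs3, the feedback inhibitor induced by STAT3, differed by -0.37 (SE 0.23). Its highest array was control replicate 4 (8.91) and its lowest control replicate 5 (7.32). The Socs3 difference was -0.19 without control replicate 4, -0.59 without control replicate 5 and -0.10 without control replicates 1 and 4. Bcl3, a nuclear inhibitor of NF-kB target genes, differed by -0.30 (SE 0.17). In the IL-10 family, 4 of 9 genes were higher and 5 lower. Il22, the epithelial repair cytokine, differed by 0.24 (SE 0.11), or 0.14 without control replicates 1 and 4. The receptor gene Il20rb differed by 0.10 (SE 0.08) and Il19 by -0.12 (SE 0.06, limma unadjusted p = 0.0461, adjusted p = 0.966). Il19 was the 1 gene of the 98 whose groups did not overlap, where 1.22% of all genes did not overlap. It was at 4.17 to 4.32 in the ECP arrays and 4.33 to 4.41 in the controls, among the dimmest 12.5% of genes.

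TGF-beta ligand, latency and activation genes were higher in 7 of 12 cases, with a median of 0.00. The ligand genes Tgfb2 and Tgfb3, which stromal cells make, differed by 0.28 (SE 0.16) and 0.10 (SE 0.10), and Tgfb2 by 0.06 without control replicates 1 and 4. Itgb6, the epithelial integrin chain that activates TGF-beta, differed by -0.12 (SE 0.11), or -0.03 without control replicates 1 and 4. Nrros, which holds latent TGF-beta on macrophages and microglia, differed by -0.15 (SE 0.19), with -0.32 without control replicate 1 and -0.03 without control replicate 4.

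Receptor and Smad genes were lower in 11 of 14 cases, with a median of -0.07. Smad2, a signal carrier phosphorylated by the receptors, had the smallest p of the 98 pathway genes. It was at 7.94, 7.92, 7.84, 8.08 and 7.74 in ECP replicates 1 to 5 and at 8.28, 8.06, 8.06, 8.25 and 8.15 in control replicates 1 to 5. ECP replicate 4 alone lay among the controls, and the difference was -0.25 (SE 0.08, limma unadjusted p = 0.00780, adjusted p = 0.70), or -0.18 without control replicates 1 and 4. Smad3, the second receptor-activated Smad, differed by -0.10 (SE 0.06), Smad4, their common partner, by -0.10 (SE 0.08), or -0.05 without control replicates 1 and 4, and the receptor gene Tgfbr1 by 0.06 (SE 0.07). TGF-beta target genes were higher in 8 of 13 cases with a median of 0.01. The repressor gene Tgif1 differed by 0.15 (SE 0.09), the fibronectin gene Fn1 by 0.20 (SE 0.17) and the feedback inhibitor gene Pmepa1 by 0.09 (SE 0.09). Without control replicates 1 and 4 these were 0.09 for Tgif1, 0.09 for Fn1 and 0.06 for Pmepa1, and Fn1 was 0.04 without control replicate 1 alone.

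Partners of EBI3 and the IL-12 family were higher in 6 of 9 cases, with a median of 0.03. The EBI3 partner genes Il27 and Il12a differed by 0.03 (SE 0.10) and -0.18 (SE 0.12), and the IL-27 receptor gene Il27ra by -0.32 (SE 0.32). Without control replicate 4, Il12a differed by -0.05 and Il27ra by 0.02. Without control replicates 1 and 4, Il12a differed by -0.06, Il27ra by 0.12 and Il27 by -0.003. Il12a was at 4.90 and Il27ra at 7.13 in control replicate 4, each above every other array, as was Ebi3. Il23a, which encodes the IL-23 subunit p19, differed by 0.31 (SE 0.13, limma unadjusted p = 0.0381, adjusted p = 0.951). It was at 4.55 to 4.88 in the ECP arrays, 4.94 in control replicate 1 and 4.21 to 4.58 in the other controls. Il23a and Il12a were among the dimmest 16.6% and 12.6% of genes by mean intensity.

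**Figure D3:**
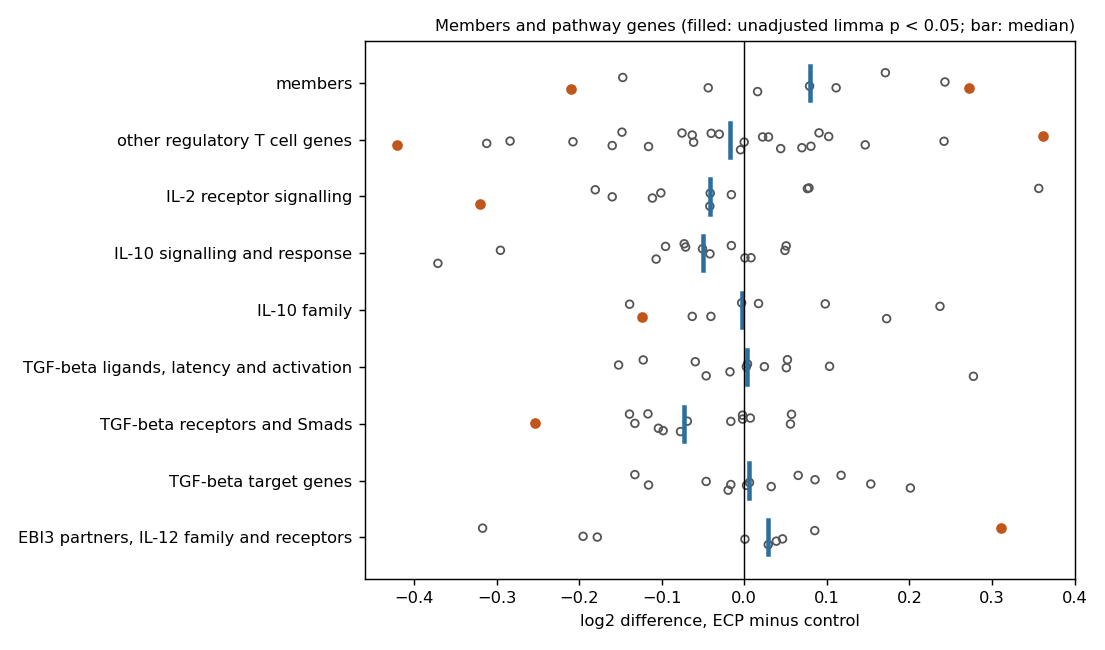
Log2 difference between the groups (horizontal axis, ECP minus control) of each measured member and of each gene of the 8 pathway lists; filled points have an unadjusted limma p under 0.05 and bars are medians. List medians lay between -0.07 and 0.03, and the median of the members was 0.08.

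Single arrays stood at the top or the bottom for several members at once. Of the 9 measured members, control replicate 4 was the highest array for 5 (Il2ra, Lrrc32, Il10ra, Tgfb1 and Ebi3), and among the 3 highest for 6. ECP replicate 1 was among the 3 highest for 7, and control replicate 5 among the 3 lowest for 7. These arrays also stood at the ends of the macrophage markers, control replicate 4 at 8.52, ECP replicate 1 at 8.5 and control replicate 5 at 7.70. Control replicate 1 was lower still at 7.51. Endothelial markers had the same order on these arrays, at 7.98, 7.83, 7.48 and 7.30. Lrrc32 and Il10ra kept this order on these arrays, and the other measured members did not. Ikzf2 was lowest in control replicate 4 and Tnfrsf18 highest in control replicate 3. Il10 and Tgfbr2 were highest in ECP replicate 1, and Il10ra and Ebi3 were lowest in ECP arrays. Il2ra and Il10 were lowest in control replicate 3, and Tgfb1 was lower in control replicate 5 than in control replicate 1. The control SD was larger than the ECP SD for 7 of 9 members and for 78 of the 98 pathway genes (79.6%), against 65.8% of all genes.

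**Figure D4:**
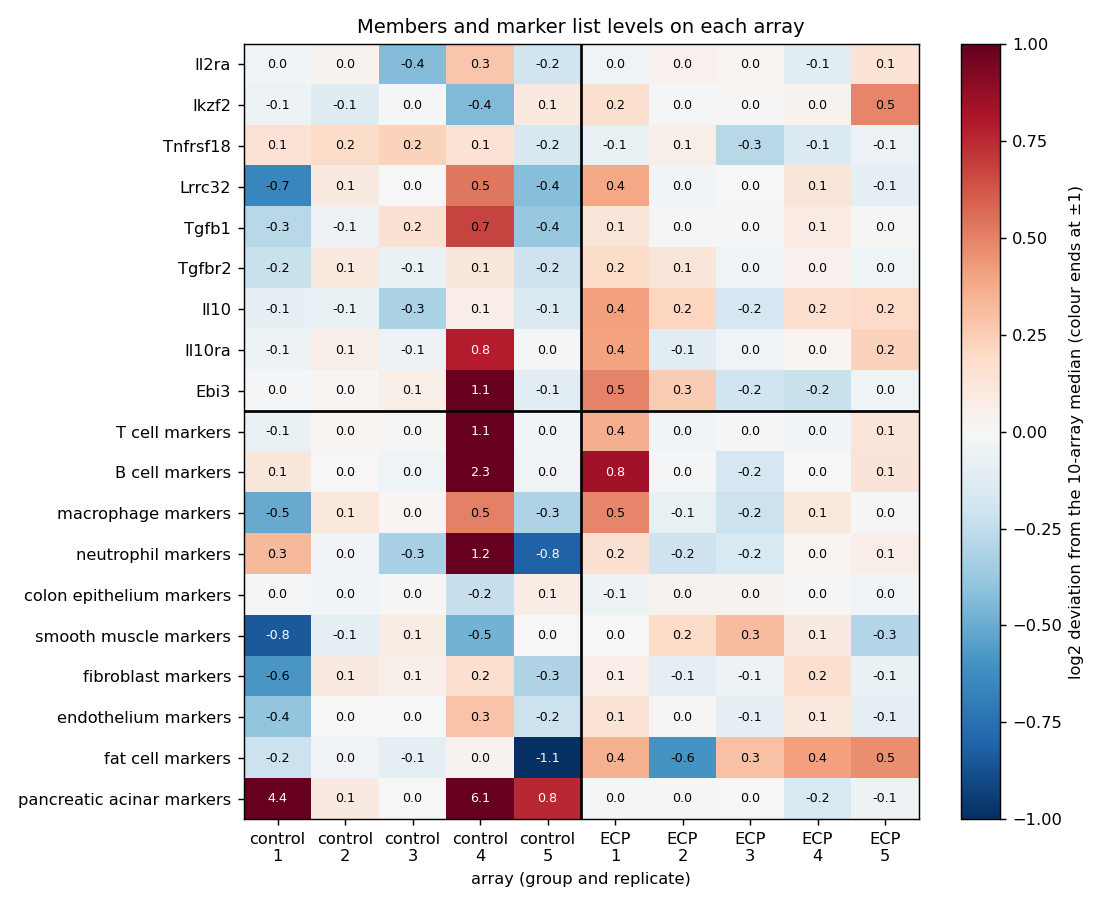
Deviation of each measured member (upper rows) and of each marker list level (lower rows) from its 10-array median on the log2 scale, by array; printed values are the deviations and the colour ends at ±1. Control replicate 4 is above the median in Ebi3, Il10ra and Tgfb1 and in T cell, B cell, macrophage and neutrophil markers.

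Genes whose pattern over the 10 arrays was most like that of Tgfb1 or Il10 were sought among the brighter genes, those at or above the median mean level (9752 besides Tgfb1, and 9753 for Il10, which is itself below that level). For Tgfb1 they were Col18a1 (Pearson r = 0.965), Slc39a6 (0.963), Twistnb (0.959), Klhl6 (0.959) and Limd2 (0.956), and without control replicate 4 these values were 0.874 to 0.966 over 9 arrays. For Il10 they were Uso1 (Pearson r = 0.885), Canx (0.874), Mrpl58 (0.872), Aldh3b1 (0.871) and Septin8 (0.861), and 0.873 to 0.929 without control replicate 4. These are the highest of many values over few arrays that share their tissue make-up, so they carry no p and describe these arrays only.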

How the data were processed

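Gene names came from the platform annotation (19572 of 22203 probe sets named, all matched by gene identifier to RefSeq, 0 symbols updated, 2631 unnamed here). The deposited values were log2 intensities that the authors computed by RMA with the oligo package, per the submitters' processing notes, with versions and genome build not given in the sources used here. RMA makes the arrays alike in distribution, which hides any shift common to most genes. The highest-mean probe set stood for each of the 55 genes with several, none of them a member. Array medians lay between 6.94 and 6.98, array pairs correlated at 0.977 to 0.996, and 0 pairs were identical. For arrays, their number limits the precision.

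Groups and replicate numbers came from the sample titles. All 19505 genes were fitted in R 4.3.3 with limma 3.58.1 (lmFit, then eBayes, no covariate, two-sided, 95% intervals). Adjusted p-values follow Benjamini and Hochberg across all genes, the threshold was 0.05, and the fit was tested on simulated data. A list level averages the log2 values of the measured markers on an array. Members, lists and alternatives were chosen with earlier results of these data known. Genes named besides the members are the 3 with the smallest unadjusted p in each pathway list, direct partners of the members, 5 defining tissue markers, and the 5 genes most like Il10 and Tgfb1 (Foxp3, also in the rule, was not analysed here). Replicate numbers are not stated to pair mice, so they were not used to pair arrays in the main fit. Same-numbered arrays, checked afterwards, did not deviate together (correlations of -0.24 to 0.08). Alternatives, 23 planned fits and 3 chosen after seeing the data, were other normalisations, filters, variance models and covariates, and arrays left out.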

Additional observations from a re-analysis of the deposited data

Results flagged for a closer look

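An extreme array stood apart, its distance to the next array exceeding 0.71 of the range of its group of 5, in 9 of 54 cases examined. Chance gives about 1 in 20, or 2.7, for independent cases. These cases share arrays and related genes, so the 2 counts cannot be weighed against each other. Control replicate 4 was the highest control in Il10ra (8.38, next 7.66), Ebi3 (5.89, next 4.89), T cell markers (7.09, next 6.04), B cell markers (8.67, next 6.53) and the list of EBI3 partners and IL-12 family genes (6.54, next 6.09). Control replicate 5 was the lowest control in Tnfrsf18 (6.99, next 7.30) and in fat cell markers (5.42, next 6.28). ECP replicate 2 was the lowest ECP array in fat cell markers (5.89, next 6.78), and ECP replicate 4 the highest in TGF-beta receptors and Smads (8.65, next 8.59).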

How the results depend on the processing

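The count of members past the threshold was 0 with all 26 alternative fits, and the adjusted p of a member ran from 0.497 to 1.000 over them. The count of pathway genes past the threshold was likewise 0 in each. The 8 list medians moved by less than the spread of a list's level between arrays. Leaving out 1 of 5 arrays could hardly move them further, so this does not show that they were stable. Their signs were not stable, since 7 turned with 1 array left out, 5 without control replicates 1 and 4 and 2 under renewed quantile normalisation. With 1 array left out, medians ran from -0.060 to 0.058 for other regulatory T cell genes, -0.084 to 0.011 for the IL-2 receptor, -0.092 to 0.047 for IL-10 signalling, -0.035 to 0.012 for the IL-10 family, -0.047 to 0.037 for TGF-beta ligands and activation, -0.023 to 0.070 for TGF-beta targets, -0.019 to 0.063 for EBI3 partners and -0.094 to -0.030 for receptors and Smads. With the replicate number as a block, 0 members passed. An unadjusted p under 0.05 was then held by 886 genes, where the fit without the block had 991. Of the members 2 held it, Il10 (limma unadjusted p = 0.0105) and Ikzf2 (0.0244), while Tnfrsf18 did not (0.0626). The planned test of Foxp3 against T cell markers was not run, as Foxp3 was not analysed here. Leaving out genes below the median level removed 4 members from the test, and leaving out the lowest quartile removed 2.

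Differences of 3 members turned sign under other settings, none past the threshold. Il10ra was at 0.0053 with array weights, 0.17, 0.050 and 0.068 with the acinar, T cell or B cell level as a covariate, 0.11 without control replicates 1 and 4, 0.097 without control replicates 1, 4 and 5, and 0.041 without ECP replicate 1 and control replicate 4. Tgfb1 was at -0.0081 without control replicates 1, 4 and 5 and -0.054 with the macrophage level. Ebi3 was at 0.15 and 0.0031 with the acinar or B cell level, 0.066 without control replicates 1 and 4, and 0.019 without control replicates 1, 4 and 5. Among other genes, without control replicates 1, 4 and 5 Il20rb was at -0.050, Itgb6 at 0.0063, Fn1 at -0.024, Pmepa1 at -0.064, Il27ra at 0.015, Il27 at -0.010 and Muc2 at -0.023. With the acinar level Il27ra was at 0.23, Il27 at -0.0033, Il2rb at 0.18, Cd3e at 0.12 and Muc2 at -0.055, and with the B cell level Il2rb at 0.026 and Muc2 at -0.0069. Without control replicates 1 and 4 Il27ra was at 0.12, Il27 at -0.0027, Il2rb at 0.084 and Muc2 at -0.033. Il27 was at -0.0095 with array weights and at -0.012 without ECP replicate 1 and control replicate 4. The cause of these turns was not tested.

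Leaving out 1 array at a time turned the sign for 4 members, with ranges of -0.012 to 0.17 for Il2ra, -0.12 to 0.12 for Il10ra, -0.084 to 0.18 for Tgfb1 and -0.26 to 0.068 for Ebi3. It did so for 6 other genes, with ranges of -0.46 to 0.013 for Cd3e, -0.032 to 0.44 for Ctla4, -0.023 to 0.098 for Il27, -0.48 to 0.023 for Il27ra, -0.30 to 0.11 for Il2rb and -0.025 to 0.059 for Muc2. Alternatives without control replicates 1, 4 and 5, without ECP replicate 1 and control replicate 4, and with the macrophage level were chosen after seeing the data.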
